A study of Homo sapiens with 8 samples.

Results

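Chemokines and colony-stimulating factors are secreted proteins with which an epithelium calls in and sustains white blood cells, and 10 of their genes were followed in an esophageal epithelium with less HIF1A. The genes were taken by name from a list of epithelial chemokines plus CSF2, CSF3 and IL6. All 10 were found among the 25369 genes of the deposited expression table, IL8 under its current symbol CXCL8. RNA sequencing was done on EPC2-hTERT, human esophageal epithelial cells immortalised with telomerase. The HIF1A-KD group carried a stable lentiviral short hairpin RNA against HIF1A and the shCtrl group a stable lentiviral control hairpin, with 4 libraries of each, numbered 1 to 4. All cells spent 2 days growing to confluence on membranes with 0.4 µm pores, then 5 days at 1.8 mM calcium chloride and 4 days exposed to air. The labels also name a DMSO vehicle and dimethyloxalylglycine, a hydroxylase inhibitor, and assign neither to a library. The labels do not say whether a group is more than 1 transduced line or whether its libraries came from separate cultures, so the p-values measure only the spread between these libraries, which may be technical.

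Chemokines bind receptors on white blood cells and draw them along a gradient. Squamous epithelium makes some of them at rest, and makes others mainly when cytokines such as IL-17 or TNF activate NF-kB and AP-1. Colony-stimulating factors act on the bone marrow and on mature white blood cells. HIF-1, of which HIF1A encodes the oxygen-regulated subunit, binds the short core sequence of hypoxia response elements and is known to shape inflammatory signalling at mucosal surfaces.

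HIF1A itself was lower under the knockdown in 4 of 4 numbers, with overlapping groups. It stood at 27.6, 19.0, 54.8 and 45.0 RPKM (reads scaled by gene length and by the read total of the library) in HIF1A-KD 1 to 4, and at 95.2, 51.4, 89.8 and 122 RPKM in shCtrl 1 to 4. The log2 change of −1.34 was not called without pairing (adjusted p = 0.319, limma) and was called with the library number as a block (adjusted p = 0.0253, limma), a call lost without HIF1A-KD 1, 2 or 4 or shCtrl 1 or 2 (adjusted p up to 0.188). It was not called with the split of libraries 1 and 2 from 3 and 4 as a term in place of the number (adjusted p = 0.0521, limma). The deposited values imply 38068729 to 65326907 reads in HIF1A-KD libraries and 43205845 to 52401547 reads in shCtrl libraries. Libraries 1 and 2 of each group stood apart from libraries 3 and 4, a split that the labels do not mention. Between 2359 and 2407 genes held 1 to 5 reads in libraries 1 and 2 of either group, whereas 512 and 254 genes did so in HIF1A-KD 3 and 4, and 213 and 900 genes in shCtrl 3 and 4. Of 8 squamous keratinocyte markers, all were tested and none passed the test, with summed levels of 23530 to 27960 RPKM in HIF1A-KD and 22520 to 28430 RPKM in shCtrl. Those sums are mostly KRT5, KRT14 and KRT6A. KRT13, a keratin of differentiated mucosal squamous cells, was at 367, 1034, 721 and 1081 RPKM in HIF1A-KD 1 to 4, and at 25.7, 157, 676 and 152 RPKM in shCtrl 1 to 4. It was higher in 4 of 4 numbers with overlapping groups, and its log2 change of 2.37 (95% interval 0.47 to 4.26) was not called (adjusted p = 0.465 without pairing and 0.116 with the block, limma). Of 12 leukocyte markers 2 were high enough to test, CD14 and CD68, while the defining leukocyte genes PTPRC and CD3E had no reads in any library. The summed leukocyte list, mostly CD68, stood at 25.75 to 88.1 RPKM in HIF1A-KD and 34.1 to 117.8 RPKM in shCtrl. Of 5 endothelial markers VWF alone was tested, and PECAM1 stayed at or near 0. The summed endothelial list, mostly VWF, stood at 1.386 to 12.81 RPKM in HIF1A-KD and 0.7485 to 15.44 RPKM in shCtrl. VWF was highest in library 1 of each group, at 12.6 RPKM in HIF1A-KD 1 and 15.3 RPKM in shCtrl 1. VWF was not called (adjusted p = 0.979 without pairing, limma). Of 8 fibroblast markers COL1A1 alone was high enough to test, and THY1 was at 0 throughout. The summed fibroblast list, nearly all COL1A1, stood at 14.1 to 19.2 RPKM in HIF1A-KD against 21.15 to 27.7 RPKM in shCtrl.

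**Figure D1:**
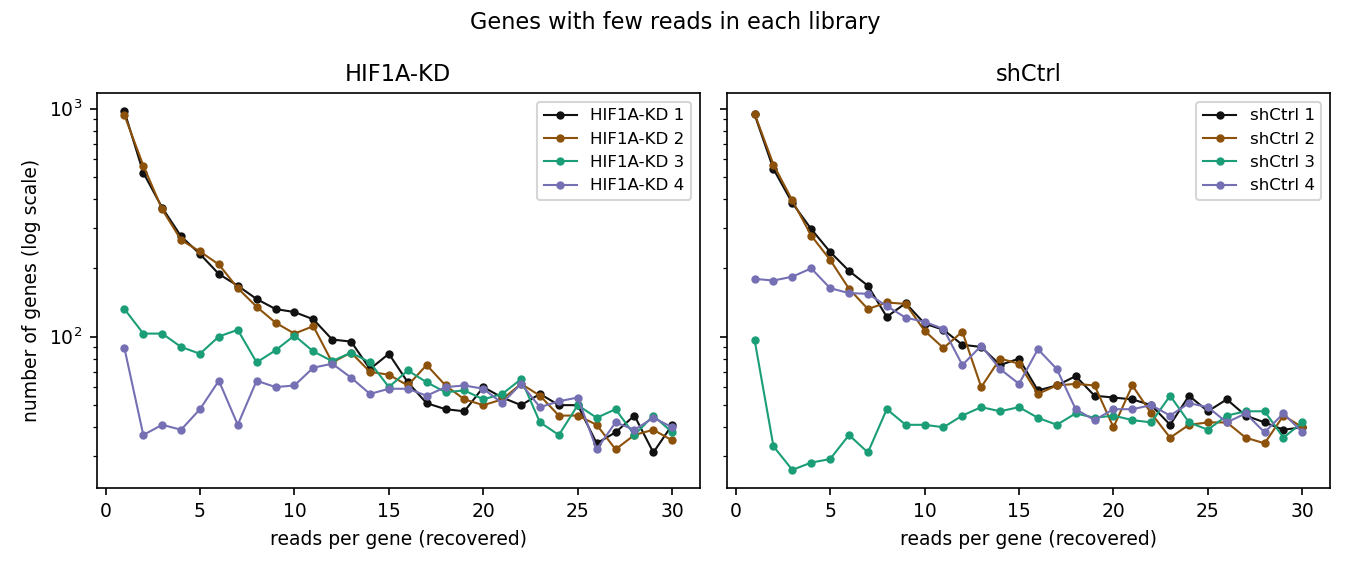
Number of genes (log scale) holding each number of recovered reads, 1 to 30, in the HIF1A-KD libraries (left) and the shCtrl libraries (right), 1 line per library. Genes with 1 read number 971 and 935 in HIF1A-KD 1 and 2 against 132 and 89 in HIF1A-KD 3 and 4, and 943 and 950 in shCtrl 1 and 2 against 97 and 179 in shCtrl 3 and 4.

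Of the 10 genes, CXCL17 was higher and CSF3 lower in HIF1A-KD than in shCtrl without overlap of the groups. The lack of overlap makes the direction the same in 4 of 4 numbers. CXCL14 was also higher in 4 of 4 numbers, but its groups overlapped. The chemokines best known for attracting neutrophils were low in both groups and showed no difference beyond the spread between libraries. IL6 had no reads in any library. The 7 genes that reached 0.5 RPKM in 4 or more libraries were tested, as part of a fit over 11899 genes, and a gene counts as called where its adjusted p was under 0.05. Without pairing, limma called 0 of the 7, against 0.042% of all genes tested, and 3 of the 7 had an unadjusted p under 0.05. With the library number as a block, limma called 2 of the 7, against 1.83% of all genes tested. CXCL17 was the 1 called higher, against 0.74%, and CSF3 the 1 called lower, against 1.09%. These were also the 2 of 7 whose groups did not overlap, against 5.4% of all genes tested (3.27% higher and 2.13% lower). Of the 7 genes, 3 were higher in HIF1A-KD in 4 of 4 numbers, against 18.6% of all genes, and 1 was lower in 4 of 4, against 10.7%. The median log2 change of the 7 was 0.37, against 0.06 over all genes tested, and 4 of the 7 estimates lay above 0, against 58.7%. CCL20, 1 of those 4, passed the filter with 3 HIF1A-KD libraries and 1 shCtrl library, so mainly through the group where it was higher. In RNA from a whole culture, fewer cells that make a transcript and less transcript per cell cannot be told apart.

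RPKM is scaled by gene length, so levels can be set beside each other across genes. Averaged over the 8 libraries, CXCL14 stood highest at 42.1 RPKM, followed by CXCL16 at 19.2 and CXCL17 at 11.96 RPKM. That order was not the order in both groups. In HIF1A-KD the means were 72.5 RPKM for CXCL14, 21.45 for CXCL16 and 20.2 for CXCL17, whereas in shCtrl CXCL16 led at 16.9 RPKM, ahead of CXCL14 at 11.6 and CXCL17 at 3.70. CXCL14 lay above CXCL16 in only 4 of 8 libraries, so those neighbours did not keep 1 order, while CXCL16 lay above CXCL17 in 7 of 8. After a gap came CSF3 at 1.92, CCL20 at 1.66, CXCL1 at 1.03, CXCL8 at 0.730, CSF2 at 0.463 and CXCL2 at 0.358 RPKM. Among these low genes CSF3 lay above CCL20, CCL20 above CXCL1 and CSF2 above CXCL2 in 4 of 8 libraries each, which gives no order. Summed over the 10 genes, the level was 126, 48.7, 185 and 119 RPKM in HIF1A-KD 1 to 4, and 21.9, 29.04, 51.6 and 52.8 RPKM in shCtrl 1 to 4. CXCL14, CXCL16 and CXCL17 made up 94.8% to 95.8% of that sum in HIF1A-KD and 68.7% to 90.5% in shCtrl. CXCL14 by itself held 79.9%, 18.1%, 70.6% and 41.5% of the sum in HIF1A-KD 1 to 4, and 25.2%, 12.8%, 29.4% and 41.9% in shCtrl 1 to 4. These CXCL14 shares overlapped between the groups, and 79.9% and 70.6% in HIF1A-KD 1 and 3 were above all others.

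**Figure D2:**
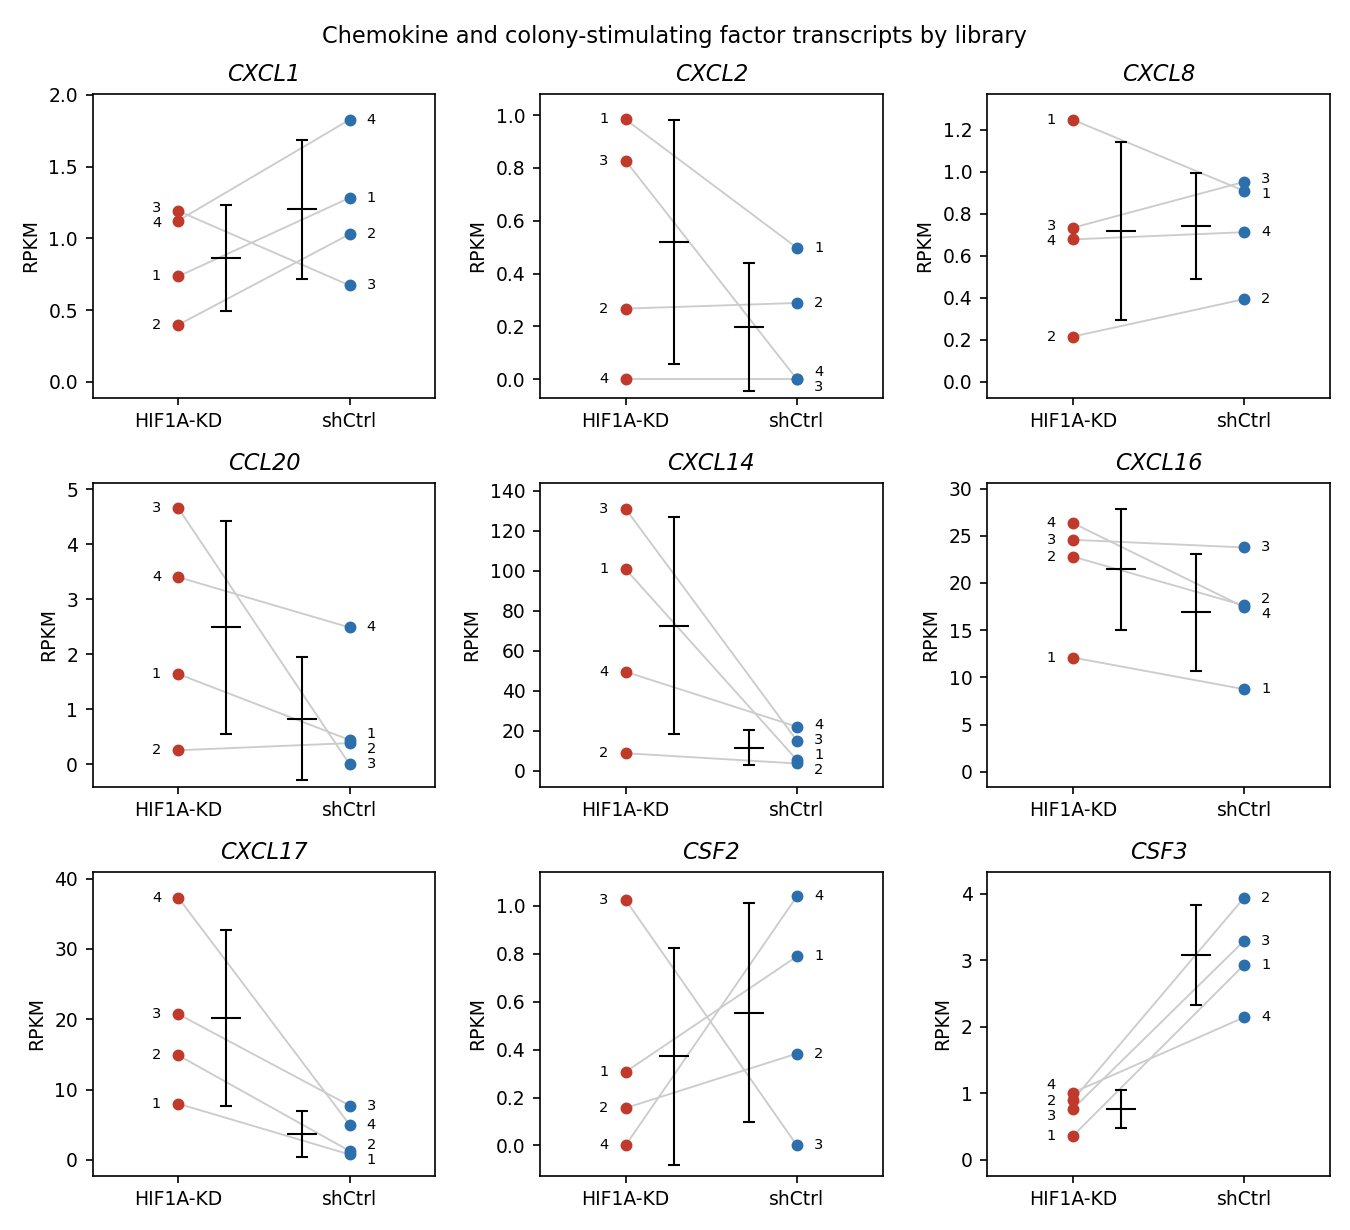
Level in RPKM (vertical axis) of 9 of the 10 genes in HIF1A-KD (red) and shCtrl (blue). Points are libraries with their numbers, grey lines join libraries of the same number, and black bars show the mean ± SD (n = 4). CXCL17 and CSF3 are the panels in which red and blue points do not overlap. IL6, at 0 in all 8 libraries, is not drawn.

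CXCL1, CXCL2 and CXCL8 are the ligands through which epithelia are best known to attract neutrophils, by way of the receptor CXCR2 and, for CXCL8, also CXCR1. In hg19 they lie together on chromosome 4, within 358.8 kb: CXCL8 at chr4:74606223-74609433 and CXCL1 at chr4:74735109-74737019 on the plus strand, and CXCL2 at chr4:74962754-74964997 on the minus strand. Their promoters are shown because the genes share a role and, in this window, the same letters of the kB type, the sequence that NF-kB binds. The 250 bases before each start site are from RefSeq, build GRCh38.p14, where they lie at chr4:73869143-73869392 (CXCL1, plus strand), chr4:74099196-74099445 (CXCL2, minus strand) and chr4:73740319-73740568 (CXCL8, plus strand). Capitals mark the letters GGAATTTCC, a form of the kB site, searched on both strands.
CXCL1: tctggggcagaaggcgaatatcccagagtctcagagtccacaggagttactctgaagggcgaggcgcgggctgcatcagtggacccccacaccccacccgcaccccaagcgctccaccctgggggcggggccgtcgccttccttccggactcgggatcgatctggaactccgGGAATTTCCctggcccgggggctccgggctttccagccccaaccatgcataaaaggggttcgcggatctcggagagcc
CXCL2: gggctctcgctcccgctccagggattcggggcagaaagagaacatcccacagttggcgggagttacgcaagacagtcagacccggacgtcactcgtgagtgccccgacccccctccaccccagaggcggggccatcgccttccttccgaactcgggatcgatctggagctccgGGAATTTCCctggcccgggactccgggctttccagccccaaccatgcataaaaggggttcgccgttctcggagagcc
CXCL8: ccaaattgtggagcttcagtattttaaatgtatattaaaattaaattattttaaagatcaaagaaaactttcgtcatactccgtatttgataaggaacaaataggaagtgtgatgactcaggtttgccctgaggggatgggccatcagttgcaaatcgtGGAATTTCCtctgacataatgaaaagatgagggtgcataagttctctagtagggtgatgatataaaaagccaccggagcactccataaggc
The match begins 78, 77 and 91 bases before the start in CXCL1, CXCL2 and CXCL8, and such a match is held by 0.413% of 35116 RefSeq promoters of this length. CXCL1 and CXCL2 are identical at 181 of 250 aligned bases (72.4%), against 46.4% for CXCL1 with CXCL8 and 44.4% for CXCL2 with CXCL8. The CXCL1 and CXCL2 transcripts are also near copies in places. Of the 50-base words in the protein-coding transcripts of GENCODE v29, 5.73% of those of CXCL1 and 9.24% of those of CXCL2 recur in another of the 10 genes or in their relative CXCL3, so the split of reads between them is uncertain. The other genes of the 10 share no such word.

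CXCL1 was measured at 0.736, 0.398, 1.19 and 1.12 RPKM in HIF1A-KD 1 to 4, and at 1.28, 1.03, 0.672 and 1.83 RPKM in shCtrl 1 to 4. The groups overlapped, and the HIF1A-KD library was lower than the shCtrl library for numbers 1, 2 and 4. The means were 0.862 ± 0.369 RPKM in HIF1A-KD and 1.20 ± 0.485 RPKM in shCtrl (SD, n = 4 each). Its log2 change of −0.46 (95% interval −1.39 to 0.47) was not called (adjusted p = 0.914, limma). The change was −0.95 in libraries 1 and 2 and 0.04 in libraries 3 and 4, on the log2 scale. CXCL8, a potent attractant of human neutrophils, was at 1.25, 0.215, 0.733 and 0.678 RPKM in HIF1A-KD 1 to 4, and at 0.908, 0.394, 0.951 and 0.712 RPKM in shCtrl 1 to 4. The highest and the lowest value both lay in HIF1A-KD, in libraries 1 and 2. The log2 change of CXCL8 was −0.16 (95% interval −1.26 to 0.95) and was not called (adjusted p = 0.992, limma). CXCL2 was at 0.984, 0.267, 0.828 and 0 RPKM in HIF1A-KD 1 to 4, and at 0.498, 0.289, 0 and 0 RPKM in shCtrl 1 to 4. The groups overlapped, and all 3 libraries without a read carry the number 3 or 4. A count of 3 reads would have been 0.0655 RPKM in HIF1A-KD 4, and 0.0476 and 0.0522 RPKM in shCtrl 3 and 4, limits that cover counting error only. CXCL2 was below the filter and was not tested, and an exact two-sided permutation test of its log2 values gave p = 0.4. Between 15 and 104 reads stood behind the values above 0 of CXCL1, CXCL2 and CXCL8. A difference was not detectable against the spread at this depth, which does not show that the groups were alike. The part that the scarcity of low read counts in libraries 3 and 4 has in these values was not tested.

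Summed, CXCL1, CXCL2 and CXCL8 stood at 2.97, 0.881, 2.75 and 1.80 RPKM in HIF1A-KD 1 to 4, and at 2.69, 1.71, 1.62 and 2.54 RPKM in shCtrl 1 to 4. HIF1A-KD 2 held the lowest level of CXCL1 and of CXCL8 among all 8 libraries. The same library held the lowest HIF1A-KD level of CCL20 and of CXCL14. The relatives CXCL3, CXCL5 and CXCL6 stayed below 0.5 RPKM in every library and PPBP was at 0 throughout, so none of those 4 was tested. The receptor CXCR2, known mainly from neutrophils and also reported in keratinocytes, was at 0.604, 1.27, 1.131 and 0.465 RPKM in HIF1A-KD 1 to 4, and at 0.0702, 0.118, 0.253 and 0.712 RPKM in shCtrl 1 to 4. The groups overlapped, and the log2 change of CXCR2 of 1.49 was not called (adjusted p = 0.536, limma). CXCR2 passed the filter with 3 HIF1A-KD libraries and 1 shCtrl library, so mainly through the group where it was higher. CXCR2 was named after its values were seen.

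CCL20 (hg19 chr2:228678558-228682280, plus strand) is the ligand of CCR6 and draws dendritic cells and IL-17-producing T cells. It was measured at 1.64, 0.255, 4.65 and 3.40 RPKM in HIF1A-KD 1 to 4, and at 0.441, 0.385, 0 and 2.49 RPKM in shCtrl 1 to 4. HIF1A-KD lay higher for numbers 1, 3 and 4, shCtrl 3 was the single library below HIF1A-KD 2, and the groups overlapped. The means were 2.49 ± 1.94 RPKM in HIF1A-KD and 0.828 ± 1.12 RPKM in shCtrl (SD, n = 4 each). Its log2 change of 1.81 (95% interval −0.57 to 4.19) was not called (adjusted p = 0.781, limma). It was 0.62 in libraries 1 and 2 and 3.00 in libraries 3 and 4, and without shCtrl 3 it was 1.03. The value in libraries 3 and 4 rests on shCtrl 3, where CCL20 had 0 reads, against 185 reads in HIF1A-KD 3. In shCtrl 3, 3 reads would have been 0.0680 RPKM, a limit that covers counting error only. The part of the scarcity of low read counts in that library was not tested. CCL20 passed the filter with exactly 4 libraries, of which 3 were HIF1A-KD.

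CXCL14, CXCL16 and CXCL17 are chemokines that epithelia make without acute stimulation. All 3 were higher in HIF1A-KD in 4 of 4 numbers, as were 18.6% of all genes tested. KRT13 was higher in 4 of 4 numbers too, with a log2 change of 2.37, and its part in the CXCL14 and CXCL17 results was not tested. Over the 8 squamous keratinocyte markers the median log2 change was 0.11, and 5 estimates lay above 0. IVL among them had a log2 change of 0.31 (adjusted p = 0.965, limma) and was higher in 3 of 4 numbers. The difference in means was smaller than the spread between libraries for CXCL16, and larger for CXCL14 and CXCL17. CXCL17 is a chemokine of mucosal surfaces known to attract monocytes and dendritic cells. CXCL14 is made by resting squamous epithelium and is known for its loss in squamous carcinomas. The promoters of CXCL14 and CXCL17 are shown because these were the 2 chemokines with the largest differences in the group with less HIF1A. They are again the 250 bases before the start in RefSeq GRCh38.p14, at chr5:135578992-135579241 (CXCL14, minus strand) and chr19:42442947-42443196 (CXCL17, minus strand), with capitals for ACGTG or GCGTG, the core of hypoxia response elements, on either strand.
CXCL14: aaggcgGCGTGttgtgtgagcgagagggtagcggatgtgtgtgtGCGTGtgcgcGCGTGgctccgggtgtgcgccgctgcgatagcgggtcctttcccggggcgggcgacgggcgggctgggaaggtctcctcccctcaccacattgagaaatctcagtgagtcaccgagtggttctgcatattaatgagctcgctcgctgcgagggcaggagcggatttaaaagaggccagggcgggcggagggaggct
CXCL17: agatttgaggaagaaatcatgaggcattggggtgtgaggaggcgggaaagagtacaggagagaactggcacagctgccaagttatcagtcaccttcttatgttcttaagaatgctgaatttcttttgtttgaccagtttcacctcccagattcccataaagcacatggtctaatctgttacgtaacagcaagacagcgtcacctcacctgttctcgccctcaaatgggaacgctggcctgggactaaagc
The CXCL14 window holds GCGTG 3 times, beginning 244, 206 and 196 bases before the start, and the CXCL17 window holds neither form. The core is short, and 43.2% of the 35116 promoters hold at least 1. Of the 8 genes with a RefSeq promoter entry, CCL20 is the other with a match, 1 on the opposite strand beginning 60 bases before the start. Binding of HIF-1 was not measured, and a match is a description of the sequence only.

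CXCL17 (hg19 chr19:42932695-42947136, minus strand) was at 7.99, 14.9, 20.7 and 37.3 RPKM in HIF1A-KD 1 to 4, and at 0.775, 1.28, 7.74 and 5.01 RPKM in shCtrl 1 to 4. Every HIF1A-KD library lay above every shCtrl library, though HIF1A-KD 1 lay only just above shCtrl 3. In reads, these were 311, 829, 835 and 1211 in HIF1A-KD and 32, 47, 346 and 204 in shCtrl. The means were 20.2 ± 12.5 RPKM in HIF1A-KD and 3.70 ± 3.29 RPKM in shCtrl (SD, n = 4 each), a ratio of 5.47. The log2 change of 2.73 (SE 0.73, 95% interval 1.10 to 4.37) was not called without pairing (adjusted p = 0.303, limma). With the number as a block CXCL17 rose (adjusted p = 0.0252, SE 0.34, limma). It was also called with the split of libraries 1 and 2 from 3 and 4 as a term in place of the number (adjusted p = 0.0223, limma). The exact two-sided permutation test, which is unpaired, gave p = 0.0286, the smallest that 4 against 4 allows. Groups without overlap always give that value, so it adds nothing to the lack of overlap. The log2 change was 3.33 in libraries 1 and 2 and 2.14 in libraries 3 and 4. The blocked call was lost without HIF1A-KD 1, 2 or 4 or shCtrl 1, 2 or 4. Over the 8 fits that leave out 1 library, adjusted p ran from 0.00453 to 0.169 (limma). With the block, leaving out either library of a number gave the same log2 change, so these are not 8 separate checks.

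CXCL14 (hg19 chr5:134906371-134914969, minus strand) was at 101, 8.84, 131 and 49.5 RPKM in HIF1A-KD 1 to 4, and at 5.52, 3.73, 15.2 and 22.1 RPKM in shCtrl 1 to 4. HIF1A-KD 1 and 3 stood far above all other libraries, and HIF1A-KD 2 lay within the shCtrl range. Counting error is small here, with 1139 to 12195 reads in HIF1A-KD and 318 to 2082 reads in shCtrl. The means were 72.5 ± 54.2 RPKM in HIF1A-KD and 11.6 ± 8.60 RPKM in shCtrl (SD, n = 4 each), a ratio of 6.24. The log2 change of 2.41 (SE 0.86, 95% interval 0.47 to 4.36) was called neither without pairing (adjusted p = 0.471, limma) nor with the block (adjusted p = 0.0975, limma). The exact two-sided permutation test gave p = 0.0857. The log2 change was 2.69 in libraries 1 and 2 and 2.13 in libraries 3 and 4. With 1 library left out it ran from 1.94 without HIF1A-KD 3 to 3.23 without HIF1A-KD 2 unpaired, and from 1.83 without library 1 to 2.83 without library 4 with the block, called in none of those fits.

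CXCL16 (hg19 chr17:4636824-4643223, minus strand) is made as a membrane-bound chemokine that the protease ADAM10 can shed, and its receptor is CXCR6. It was at 12.1, 22.8, 24.6 and 26.3 RPKM in HIF1A-KD 1 to 4, and at 8.74, 17.6, 23.8 and 17.4 RPKM in shCtrl 1 to 4. Library 1 was the lowest of both groups, and the groups overlapped. CXCL16 had a log2 change of 0.37 (SE 0.35, 95% interval −0.41 to 1.15), which was not called (adjusted p = 0.921, limma). It was 0.42 in libraries 1 and 2 and 0.32 in libraries 3 and 4. Library 1 of either group moved it, to 0.62 without HIF1A-KD 1 and to 0.083 without shCtrl 1. CXCR6 was at 0 in every library. ADAM10 was at 20.2, 14.6, 17.3 and 14.8 RPKM in HIF1A-KD 1 to 4, and at 28.3, 20.2, 24.1 and 23.8 RPKM in shCtrl 1 to 4. It was lower in 4 of 4 numbers, and its log2 change of −0.53 was called neither without pairing (adjusted p = 0.426, limma) nor with the block (adjusted p = 0.0554, limma). ADAM10 was named after its values were seen.

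**Figure D3:**
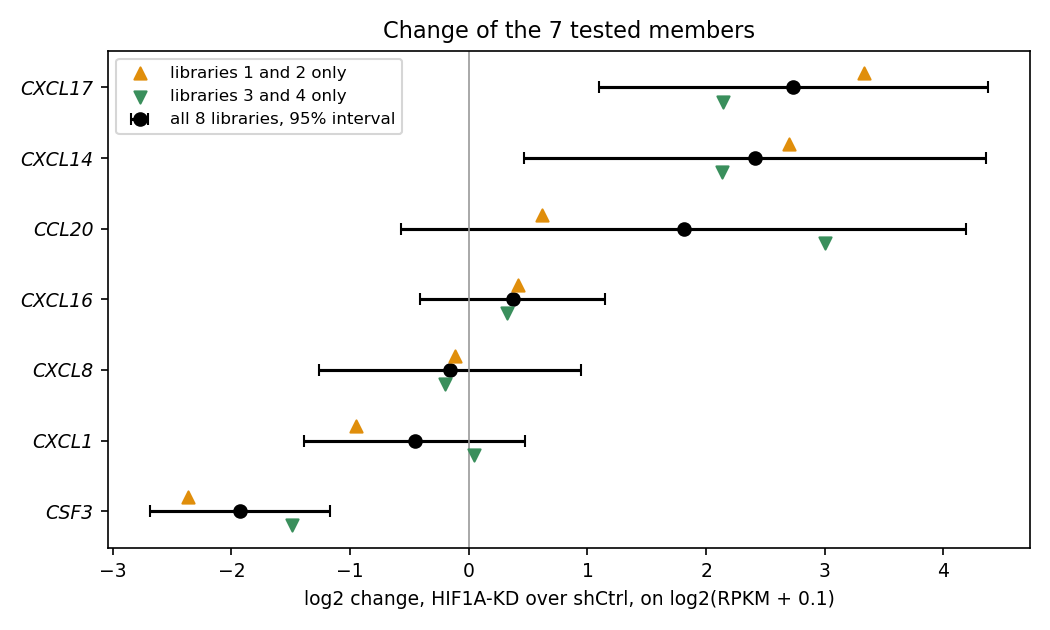
Change of the 7 tested genes, HIF1A-KD over shCtrl, on the log2(RPKM + 0.1) scale. Black points and bars give the estimate from all 8 libraries and its 95% interval without pairing, upward triangles libraries 1 and 2 only, and downward triangles libraries 3 and 4 only. CXCL17 at 2.73, CXCL14 at 2.41 and CSF3 at −1.93 have intervals that leave out 0, and CXCL1 changes sign between the 2 sets of libraries.

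CSF3 encodes G-CSF, which drives the production of neutrophils and their release from the bone marrow. CSF3 (hg19 chr17:38171614-38174066, plus strand) was at 0.360, 0.900, 0.767 and 1.01 RPKM in HIF1A-KD 1 to 4, and at 2.93, 3.94, 3.29 and 2.14 RPKM in shCtrl 1 to 4. Every HIF1A-KD library lay below every shCtrl library, and the nearest were HIF1A-KD 4 and shCtrl 4. In reads, these were 29, 104, 64 and 68 in HIF1A-KD and 251, 301, 305 and 181 in shCtrl. The means were 0.759 ± 0.285 RPKM in HIF1A-KD and 3.08 ± 0.750 RPKM in shCtrl (SD, n = 4 each), so that shCtrl held 4.05 times as much. The log2 change of −1.93 (SE 0.34, 95% interval −2.69 to −1.17) was not called without pairing (adjusted p = 0.0897, limma). With the number as a block CSF3 fell (adjusted p = 0.0403, SE 0.30, limma). It was also called with the split as a term (adjusted p = 0.0491, limma). The exact two-sided permutation test gave p = 0.0286, the smallest possible, which again follows from the lack of overlap. The log2 change was −2.37 in libraries 1 and 2 and −1.49 in libraries 3 and 4. The blocked call was lost without HIF1A-KD 1, 2 or 3 or shCtrl 1, 2 or 3. Over the 8 fits that leave out 1 library, adjusted p ran from 0.0241 to 0.249 (limma). Again, both libraries of a number gave the same log2 change when left out. COL1A1, the 1 fibroblast marker high enough to test, was lower in 4 of 4 numbers as well. It stood at 14.1 to 19.2 RPKM in HIF1A-KD against 21.15 to 27.7 RPKM in shCtrl. COL1A1 was not called (adjusted p = 0.319 without pairing and 0.0920 with the block, limma). The fibroblast genes COL1A2 and COL3A1 reached at most 0.0162 and 0.0270 RPKM in any library. The part of COL1A1 in the CSF3 result was not tested. CSF3R, which encodes the G-CSF receptor of myeloid cells, was at 0 in every library.

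CSF2 encodes GM-CSF, which supports granulocytes, macrophages and eosinophils. CSF2 (hg19 chr5:131409485-131411863, plus strand) was at 0.307, 0.156, 1.03 and 0 RPKM in HIF1A-KD 1 to 4, and at 0.789, 0.383, 0 and 1.04 RPKM in shCtrl 1 to 4. The highest values, in HIF1A-KD 3 and shCtrl 4, and the values of 0, in HIF1A-KD 4 and shCtrl 3, all fell in libraries 3 and 4, and the groups overlapped. At most 39 reads stood behind any value, and 3 reads would have been 0.1004 RPKM in HIF1A-KD 4 and 0.0729 RPKM in shCtrl 3. CSF2 was below the filter and was not tested, and the exact two-sided permutation test of its log2 values gave p = 0.629. The alpha chain of its receptor, CSF2RA, was at 0 throughout. IL6 (hg19 chr7:22766766-22771621, plus strand), an acute-phase cytokine that epithelia release on strong stimulation, had 0 reads in all 8 libraries. In those libraries 3 reads would have been 0.0388 to 0.0666 RPKM in HIF1A-KD and 0.0484 to 0.0586 RPKM in shCtrl. IL6 below about that level was not detectable, and no fold change is given. The limits given for CSF2 and IL6 cover counting error only. The part that the scarcity of low read counts in libraries 3 and 4 has in these zeros was not tested.

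The authors' deposited table gives, for 9 of the 10 genes (IL6 left out), an adjusted ratio. The adjustment was read as moderation towards no change, which the headers do not state. By the authors' deposited table, 3 of the 9 had an adjusted p under 0.05, against 9.02% of the 13627 genes it lists. For CXCL17 the authors' deposited table gives an adjusted ratio of 3.44 and an adjusted p of 8.92e-09. For CSF3 it is 0.376 in the authors' deposited table, with an adjusted p of 2.64e-05. For CXCL14 it is 2.14 in the authors' deposited table, with an adjusted p of 0.00506, so CXCL14 was called there and in neither fit made here. The ratios of the other 6 genes ran from 0.805 (CXCL1) to 1.26 (CCL20) in the authors' deposited table, with adjusted p from 0.329 (CXCL16) to 0.895 (CSF2). Both sets of values come from the same 8 libraries, so neither is independent of the other.

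Other genes of the same pathways were taken from 9 lists, and none was called without pairing. With the block, 3 of the 78 tested were called, against 1.83% of all genes tested, all 3 lower in HIF1A-KD, against 1.09%: the receptor gene OSMR and the antimicrobial genes DEFB1 and SLPI. With the split of libraries 1 and 2 from 3 and 4 as a term, SLPI was called (adjusted p = 0.00542, limma) and DEFB1 (adjusted p = 0.0506, limma) and OSMR (adjusted p = 0.160, limma) were not. Among 24 other chemokines 3 were high enough to test and 9 were at 0 in every library. CCL24, which encodes the eosinophil attractant eotaxin-2, was at 5.60, 6.42, 1.53 and 1.97 RPKM in HIF1A-KD 1 to 4, and at 1.72, 3.41, 0 and 1.10 RPKM in shCtrl 1 to 4. It was higher in 4 of 4 numbers with overlapping groups, and its log2 change of 1.84 was not called (adjusted p = 0.766, limma). That value rests partly on shCtrl 3, and without that library it was 0.76. CCL28, a mucosal chemokine, had a log2 change of −0.0015 (SE 0.39). Of 12 other colony-stimulating and IL-6 family cytokines 7 were tested and 0 called, with a median log2 change of −0.42. The most abundant of them were CLCF1, with a log2 change of −0.53 (adjusted p = 0.672, limma), and IL11, with 0.01 (adjusted p = 0.999, limma).

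Of 21 receptors 8 were tested, and 5 receptors were at 0 in every library. Of the 8 estimates 6 lay above 0, among them CXCR2, which passed the filter mainly through HIF1A-KD. OSMR, the oncostatin M receptor and a partner of the shared IL-6 family chain, was at 12.8, 7.71, 7.54 and 7.0 RPKM in HIF1A-KD 1 to 4, and at 34.5, 15.4, 10.8 and 13.1 RPKM in shCtrl 1 to 4. It was lower in 4 of 4 numbers with overlapping groups. OSMR fell with the block (log2 change −0.96, adjusted p = 0.0487, limma) and was not called without it (adjusted p = 0.525, limma). With 1 library left out, the blocked call held only without HIF1A-KD 3 or shCtrl 3 (adjusted p = 0.0346 to 0.261, limma). ACKR3, a scavenging receptor of the chemokine CXCL12, was at 20.1 to 23.4 RPKM in HIF1A-KD against 8.35 to 15.3 RPKM in shCtrl. Its groups did not overlap, and its log2 change of 0.85 was called neither without pairing (adjusted p = 0.227, limma) nor with the block (adjusted p = 0.0705, limma).

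Of the regulators known to switch on CXCL1, CXCL8, CCL20 and CSF3 in epithelia, none was called in either fit. Of 27 genes of NF-kB and IL-17 signalling 24 were tested, 10 estimates lay above 0 and the median log2 change was −0.02. NFKBIA, the inhibitor that NF-kB itself induces, was at 57.1, 83.1, 75.6 and 144 RPKM in HIF1A-KD 1 to 4, and at 68.0, 71.9, 149 and 77.7 RPKM in shCtrl 1 to 4. The groups overlapped, with 1 high library in each. The groups of 2 of the 24 did not overlap, both higher in HIF1A-KD, against 3.27% of all genes tested. NFKBIZ, which encodes an inducible co-activator of NF-kB, was at 12.9 to 20.7 RPKM in HIF1A-KD against 9.44 to 12.4 RPKM in shCtrl. Its log2 change of 0.62 was called neither without pairing (adjusted p = 0.377, limma) nor with the block (adjusted p = 0.0554, limma). NFKB2, an NF-kB subunit, was at 8.06 to 13.7 RPKM in HIF1A-KD against 6.73 to 7.83 RPKM in shCtrl. Its log2 change of 0.47 was not called in either fit (adjusted p = 0.595 without pairing and 0.213 with the block, limma). TNIP1, an inhibitor of the same pathway, had a log2 change of −0.15 (adjusted p = 0.964, limma). All 10 AP-1 and C/EBP genes were tested, with 8 estimates above 0 and a median of 0.13, among them JUNB at 0.22 (adjusted p = 0.911, limma) and FOSL1 at −0.09 (adjusted p = 0.998, limma). All 10 genes of cytokine mRNA decay and stability were tested, with 8 estimates above 0 and a median of 0.10, among them ZFP36 at 0.10 (adjusted p = 0.990, limma) and ZFP36L1 at 0.30 (adjusted p = 0.985, limma). Of 9 proteases that trim or shed chemokines 7 were tested, and the most abundant were MMP1 at a log2 change of 0.84 (adjusted p = 0.907, limma) and MMP10 at 0.47 (adjusted p = 0.975, limma). Single libraries set both sizes: without HIF1A-KD 1 they were 1.60 for MMP1 and 1.19 for MMP10, and without shCtrl 1 they were 0.42 and 0.021.

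Of 11 antimicrobial genes of squamous epithelium 9 were tested, 4 estimates lay above 0 and the median log2 change was −0.47. SLPI, which encodes a secreted protease inhibitor, was at 3872, 3943, 4559 and 4278 RPKM in HIF1A-KD 1 to 4, and at 8642, 6749, 10010 and 9823 RPKM in shCtrl 1 to 4. DEFB1, a defensin known to be made without stimulation, was at 15.0, 14.3, 15.3 and 8.85 RPKM in HIF1A-KD 1 to 4, and at 34.7, 29.4, 27.9 and 20.3 RPKM in shCtrl 1 to 4. Neither gene's groups overlapped. Both fell with the block, SLPI by 1.07 on the log2 scale (adjusted p = 0.0104, limma) and DEFB1 by 1.07 (adjusted p = 0.0113, limma), and neither was called without it (adjusted p = 0.0629 and 0.193, limma). Both blocked calls were lost without library 1 or 2 of either group, with adjusted p up to 0.0794 for SLPI and 0.139 for DEFB1 (limma). PI3, which encodes elafin, had a log2 change of −1.10 and was not called (adjusted p = 0.0904 with the block, limma). S100A9, a calprotectin subunit, had one of 0.38 (adjusted p = 0.260 with the block, limma).

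**Figure D4:**
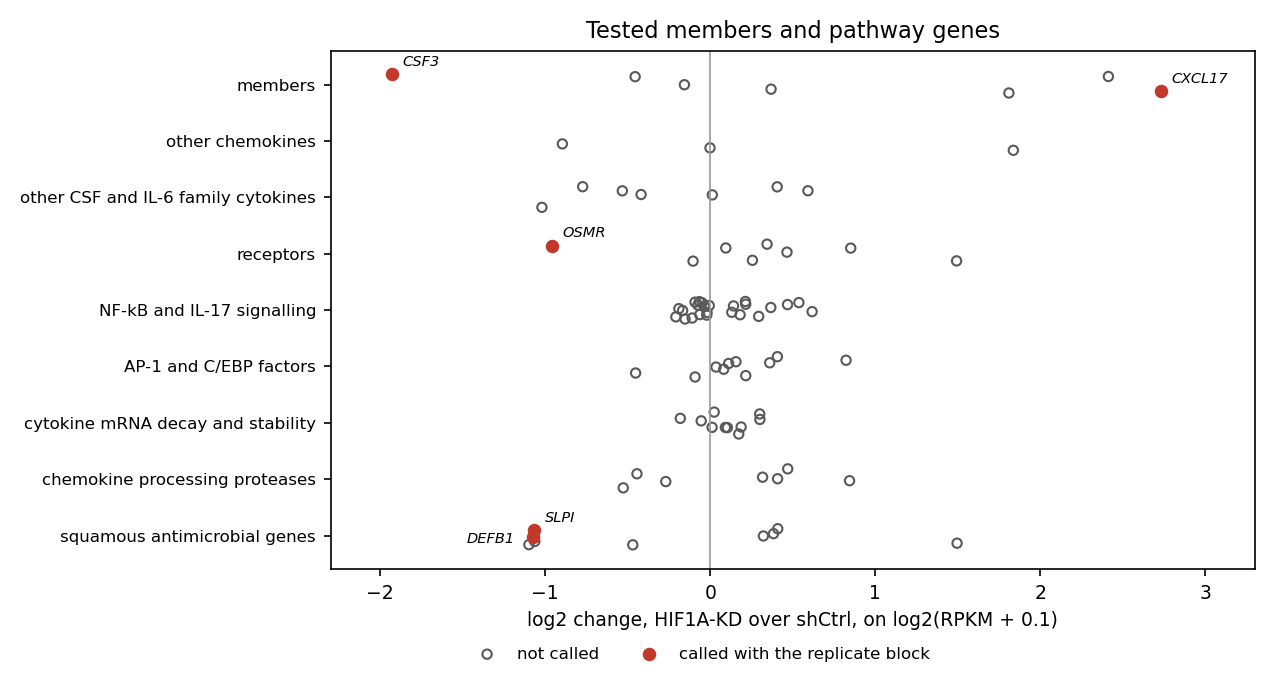
Log2 change, HIF1A-KD over shCtrl on log2(RPKM + 0.1), of each tested gene (point) by list, with vertical scatter for legibility. Filled points were called with the replicate block, CXCL17 at 2.73, CSF3 at −1.93, OSMR at −0.96, SLPI and DEFB1 at −1.07, and open points were not.

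The genes whose levels followed each of the 7 most closely were ranked by Pearson's r of log2(RPKM + 0.1) over the 8 libraries, among 10589 genes. The points share library and depth, and the 3 highest were taken from all of them, so they are given as a description. For CXCL17 these were MECOM (r = 0.984), BCAS2 (0.979) and CASP9 (0.977). For CXCL14 they were RABGAP1L (0.977), NBR1 (0.977) and PTPRZ1 (0.976), and for CXCL16 they were EWSR1 (0.989), LRRC4 (0.987) and UGP2 (0.980). CSF3 was followed most closely by BMP6 (0.983), TOP1 (0.975) and PMEPA1 (0.967). CXCL8 was followed by GJB5 (0.975), EIF2AK3 (0.971) and GADD45B (0.969), and CXCL1 by PURB (0.943), RBM18 (0.913) and the IL-6 family cytokine gene LIF (0.911). CCL20 was followed by LRRC8B (0.992), ZNF24 (0.978) and INPP5J (0.971). No gene appeared for more than 1 of the 7.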

How the data were processed

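Raw counts are what the name of the deposited expression table says, but its values are RPKM made by the authors. Each RPKM times the deposited gene length is a whole multiple of 1 step per library (100% of genes with a length, within 0.01 read), so reads and totals were recovered from it. Coordinates are hg19, by the contig names. The second deposited table holds, per the file headers, the authors' adjusted fold ratio, that ratio's log2, and p-values. No source used here names the tool that made them. The adjustment was read as moderation towards no change, which the headers do not state. The ratio was read as HIF1A-KD over shCtrl because its sign was that of the recovered reads for 96.9% of 13471 genes. The submitters' processing notes name HTSeq 0.6.1, Picard 1.129, SAMtools 1.3.1, Bowtie2 2.2.3.0, TopHat2 2.0.13, FastQC 0.11.5 and bcl2fastq. The strand setting of the counting was not given.

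The main test was limma 3.58.1 under R 4.3.3 on log2(RPKM + 0.1), two-sided, unpaired, with trend and robust moderation of the variance. It covered the 11899 genes that reached 0.5 RPKM in 4 or more of the 8 libraries, with Benjamini-Hochberg adjustment over all of them and a threshold of 0.05. This scale understates changes of low genes. The fit was tested on simulated data. Single genes were also compared by an exact unpaired permutation test (SciPy 1.17.1). Alternatives were pseudocounts of 0.5 and 1, no filter or one at 1 RPKM, median-of-ratios scaling, limma-voom on recovered reads, the replicate block, the split of libraries 1 and 2 from 3 and 4 as a term, each side of that split, and leaving out each library.

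Deviations from the group means correlated across genes between libraries of the same number, with r = 0.754 (number 1), 0.730 (2), 0.252 (3) and 0.257 (4). Since each exceeded 0.1, the number was treated as a pairing, for which the data and not the labels are the source. Some libraries of unlike numbers exceeded 0.1 too, such as shCtrl 1 with HIF1A-KD 2 (r = 0.12). The pairing is doubtful for numbers 3 and 4: shCtrl 3 was closer to HIF1A-KD 4 (r = 0.463), and shCtrl 4 to HIF1A-KD 3 (r = 0.613).

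The genes, lists and rules were chosen with earlier results of these data known. From each list the text names every called gene and the 2 tested genes with the highest level. For each tested gene of the 10 it names the 3 genes with the highest r among those averaging at least 1 RPKM. CXCR2, CXCR6, ADAM10, CSF3R, CSF2RA, COL1A1, COL1A2, COL3A1, NFKBIZ, NFKB2, KRT13 and IVL were singled out after their values were seen. Promoters are from RefSeq (GRCh38.p14), matched by symbol for 8 of the 10 genes.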

Additional observations from a re-analysis of the deposited data

Results flagged for a closer look

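None of the 10 chemokine and colony-stimulating factor genes had a library that stood apart from the other 3 of its group by Dixon's test. Among 56 groups of 4 examined, 5 did, all in pathway genes, and chance gives about 1 in 20. OSMR in HIF1A-KD 1 stood at 12.8 RPKM, above 7.0 to 7.71 RPKM in the other HIF1A-KD libraries. DEFB1 in HIF1A-KD 4 stood at 8.85 RPKM, below 14.3 to 15.3 RPKM. CLCF1 in shCtrl 4 stood at 7.47 RPKM, above 4.81 to 5.25 RPKM in the other shCtrl libraries. NFKBIA in shCtrl 3 stood at 149 RPKM, above 68.0 to 77.7 RPKM. MMP1 in shCtrl 1 stood at 9.87 RPKM, below 30.4 to 34.3 RPKM.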

How the results depend on the processing

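Without pairing, limma called 5 of 11899 genes (60% higher). It called 3 with a pseudocount of 1 (33.3% higher), 1 with no filter (100% higher), 8 with median-of-ratios scaling (37.5% higher), 3 with limma-voom (33.3% higher), 218 with the replicate block (40.4% higher), 102 with the split as a term (40.2% higher) 0 in libraries 1 and 2 only and 5 in libraries 3 and 4 only (1 higher and 4 lower). Leaving out 1 library gave 0 to 3 calls unpaired and 1 to 239 with the block. With the block, leaving out either library of a number gave the same log2 change. Of the 7 tested genes among the 10, 0 were called unpaired, 2 with the block and 2 with the split as a term. With 1 library left out, 0 of the 7 were called unpaired and 0 to 1 with the block. All 7 kept their sign under every alternative except CXCL1 in libraries 3 and 4 only (0.043) and CXCL8, which ran from −0.45 to 0.24 on the log2 scale with 1 library left out. Genes near no change also crossed 0 with 1 library left out: CCL28 (−0.28 to 0.19), FOSL1 (−0.60 to 0.46), IL11 (−0.18 to 0.15), NFKBIA (−0.34 to 0.28), TNIP1 (−0.24 to 0.033), ZFP36 (−0.12 to 0.31) and ZFP36L1 (−0.12 to 0.80). Others did so in libraries 1 and 2 only (CCL28 0.048, TNIP1 0.030), in libraries 3 and 4 only (FOSL1 0.17, IL11 −0.050) or with median-of-ratios scaling (IL11 −0.058). The cause was not tested. Fewer libraries also leave fewer degrees of freedom. CXCL1, CXCL2, CXCL8, CCL20 and CSF2 rest on at most 185 reads in a library, and IL6 on 0, so depth limits what can be said of them. The same limit holds for CSF3 in HIF1A-KD, where it rests on 29 to 104 reads in a library.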
